A study of Mus musculus with 6 samples.

Results

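Of the 24454 mouse genes in the deposited table, 8 are S100 calcium-binding protein genes chosen by name and matched by Entrez ID: S100a1, S100a4, S100a6, S100a8, S100a9, S100a10, S100a11 and S100a13. All 8 had a row, and all 8 passed the filter on low values (at least 10 normalized counts in at least 3 libraries) along with 12634 other genes. RNA-seq libraries were made from leukaemic blasts of 2 groups, 3 wild-type (WT) and 3 Stat3β transgenic (Stat3β TG). Donor cells were C57BL/6 fetal liver cells carrying an MLL-AF9 retrovirus, from Mx1-Cre/Stat3β transgenic mice or from wild-type littermates. They had been grafted into NSG recipients, which lack mature T, B and NK cells. Poly(I:C), an RNA mimic that switches on the interferon-responsive Mx1 promoter and so Cre, was given at 4 weeks. Blasts were sorted from bone marrow at 6 weeks. The treatment is described alike for both groups, so the WT blasts also came from hosts given poly(I:C). Mx1-driven Cre is not restricted to blood cells. Only the transgenic donors are described as carrying Mx1-Cre, so Cre and extra Stat3β cannot be told apart. The labels do not say that replicates came from separate donors. Each p therefore measures only the spread between these samples. The comparison asks whether S100 transcripts differed between blasts with and without extra Stat3β, the shorter splice form of STAT3.

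S100 proteins are small calcium sensors with a pair of EF-hand loops that work mostly as dimers. S100A8 and S100A9 pair with each other as calprotectin, which fills the cytosol of neutrophils and monocytes, binds zinc and manganese, and once released acts on TLR4 and RAGE. The other members are expressed in many cell types: S100A10 and S100A11 bind annexins, S100A4 binds non-muscle myosin, S100A6 binds CACYBP (calcyclin binding protein), and S100A13 takes part in the unconventional secretion of FGF1.

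Recovered reads ranged from 21809788 to 51934498 per library. They were 26805344, 21809788 and 21847953 in WT 1 to 3 and 46579680, 24733256 and 51934498 in Stat3β TG 1 to 3. On the first principal component (47.4% of the variance) WT 1, at -38.3, fell beside Stat3β TG 1 to 3, at -31.4 to -16.3, while WT 2 and WT 3 lay at 64.4 and 49.7. Xist exceeded the summed Y-linked genes in WT 1 and WT 3 only, so WT mixes both sex-linked patterns and Stat3β TG has 1. Each result was therefore refitted without single libraries and without WT 2 and WT 3. Stat3 itself was at 8058, 16112 and 10879 normalized counts in WT 1 to 3 and at 11129, 9846 and 8034 in Stat3β TG 1 to 3. Since both splice forms add to this gene-level value, it cannot check the transgene. All 10 MLL-AF9 blast markers listed, among them Hoxa9, Meis1 and Kit, passed the filter in these libraries. Of 7 B lineage markers 2 passed, of 8 erythroid markers 2, and of 8 T and NK markers 5, where Cd3e was at 0 in all 6 libraries.

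The promoter windows of S100a8 and S100a9, whose levels gave r = 0.991 over the 6 libraries, are shown beside that of S100a11, the next most abundant member. They come from RefSeq (GRCm38.p6), run from 250 bases before to 30 bases after the annotated start, 5′ to 3′ on the gene's strand, and lie at chr3:90668821-90669100 (plus strand), chr3:90695692-90695971 (minus strand) and chr3:93520246-93520525 (plus strand). Capitals mark matches, on either strand, to the motifs searched.
S100a8: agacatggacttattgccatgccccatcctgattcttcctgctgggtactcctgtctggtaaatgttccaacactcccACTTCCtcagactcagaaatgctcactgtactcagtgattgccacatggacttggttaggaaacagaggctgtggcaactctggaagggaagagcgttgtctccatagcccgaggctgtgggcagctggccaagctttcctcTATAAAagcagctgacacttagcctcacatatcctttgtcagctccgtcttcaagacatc
S100a9: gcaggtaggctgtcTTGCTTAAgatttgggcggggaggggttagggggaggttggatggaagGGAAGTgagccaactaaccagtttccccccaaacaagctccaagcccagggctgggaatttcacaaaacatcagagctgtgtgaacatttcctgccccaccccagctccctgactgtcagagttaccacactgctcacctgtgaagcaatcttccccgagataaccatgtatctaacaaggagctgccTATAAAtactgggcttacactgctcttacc
S100a11: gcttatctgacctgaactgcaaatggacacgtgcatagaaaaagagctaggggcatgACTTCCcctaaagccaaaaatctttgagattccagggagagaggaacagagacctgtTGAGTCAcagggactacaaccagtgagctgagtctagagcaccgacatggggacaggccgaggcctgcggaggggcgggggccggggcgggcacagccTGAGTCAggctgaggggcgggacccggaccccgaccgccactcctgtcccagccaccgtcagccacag
Windows of 7 of the 8 genes were in the table, each 300 bases long. The searched motifs were TATAAA, the core of a basal promoter box, then TTGCNNAA for C/EBP and TTCNNNGAA for STAT factors, GGAAGT for ETS factors, and the AP-1 motif TGANTCA. No match of one overlapped another in these 3 windows. TATAAA was in 3 of 7 member windows (S100a4, S100a8 and S100a9), against 13.6% of 32851 windows in all. Its first base lay at position -30 from the annotated start in S100a8 and at position 1 in S100a9. The ETS letters were in 6 of 7 (23.8% of all windows), and the AP-1 letters in S100a11 alone (7.81%). The S100a1 and S100a13 windows overlap on opposite strands, and their ETS matches are the same bases, so that site is counted in both. TTGCNNAA was in the S100a9 window alone (10.8%), with its first base at position -236. TTCNNNGAA was in none of the 7 (8.30% of all windows).

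S100a8 and S100a9 were higher in every Stat3β TG library than in any WT library, but the difference did not pass the test. S100a8 (Entrez 20201, chromosome 3, 90669071 to 90670034, plus strand, GRCm38) had 64805, 13580 and 41877 normalized counts in WT 1 to 3 and 97725, 79246 and 76614 in Stat3β TG 1 to 3. The lowest WT library, WT 2, stood far under the other two, and the Stat3β TG libraries lay close together. Group means were 40087 ± 25659 and 84528 ± 11505 (SD, n = 3 each). On the log2 scale Stat3β TG exceeded WT by 1.34, standard error 0.51 (2.52-fold, 95% interval 1.11 to 5.73). Its adjusted p over all genes was 0.668 by limma, 0.688 by edgeR and 0.485 by DESeq2.

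S100a9 (Entrez 20202, chromosome 3, 90692630 to 90695721, minus strand), the partner subunit, had 95326, 22318 and 78691 normalized counts in the WT libraries and 153361, 114806 and 109671 in Stat3β TG. WT 2 was again the lowest and Stat3β TG 1 the highest, with no overlap between groups. Means were 65445 ± 38264 and 125946 ± 23881 (SD, n = 3 each), a log2 fold change of 1.18 with a standard error of 0.51 (2.26-fold, 95% interval 0.999 to 5.11; limma adjusted p = 0.668, edgeR 0.688, DESeq2 0.585). Fewer cells expressing these genes and less RNA per cell cannot be told apart in bulk samples. Among all tested genes the groups did not overlap in 10.8%, and in 5.87% Stat3β TG was the higher. Of the 8 S100 genes these 2 did not overlap, and this pair was already known from earlier results on these data, so the count is a description. None of the 8 passed the adjusted threshold by limma, edgeR or DESeq2, which called 0.00%, 0.00% and 0.134% of the genes tested. At an unadjusted p under 0.05 limma had 1 of the 8 (S100a8) with 6.10% of all genes, edgeR 0 with 6.17%, and DESeq2 both S100a8 and S100a9 with 7.67%.

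**Figure D1:**
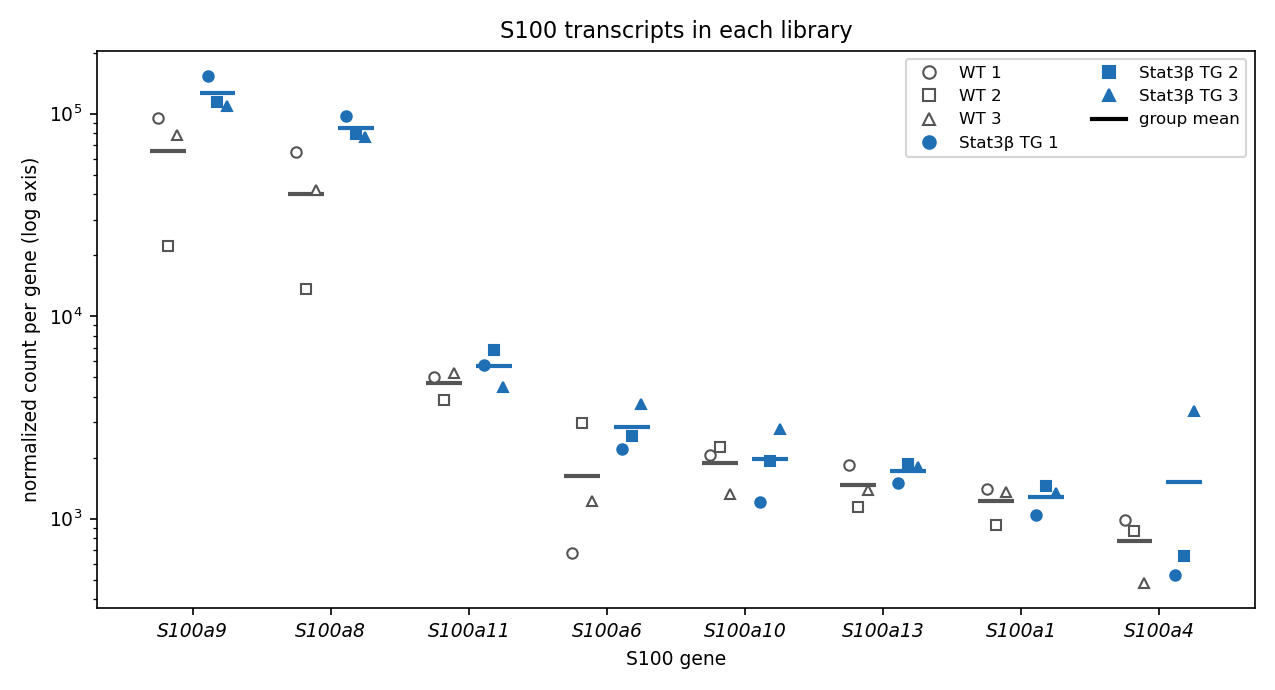
Normalized counts of the 8 S100 genes on a log axis, 1 point per library (open grey, WT; filled blue, Stat3β TG; the shape gives the replicate number) with group means as bars. For S100a9 and S100a8 every Stat3β TG point lies above every WT point and WT 2 lies lowest; in the other 6 genes the groups overlap. Points should be compared within a gene, since genes differ in length.

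The size of the S100a8 and S100a9 difference rested on WT 2. Without that library the log2 fold change was 0.69 for S100a8 and 0.52 for S100a9 (limma adjusted p = 0.971 for both), and without WT 1 it was 1.82 and 1.57 (adjusted p = 0.0794 and 0.125), where 2.37% of all genes were called. Against WT 1 alone, leaving out WT 2 and WT 3, it was 0.37 and 0.39, with 0.0648% of genes called. After adding the sex-linked pattern as a term, under which WT 2 is the only WT library compared with Stat3β TG, it was 2.63 and 2.48 (adjusted p = 0.0844 for both), with 0.0158% of genes called. The direction was higher in Stat3β TG in every one of these fits, and neither gene passed in any.

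**Figure D2:**
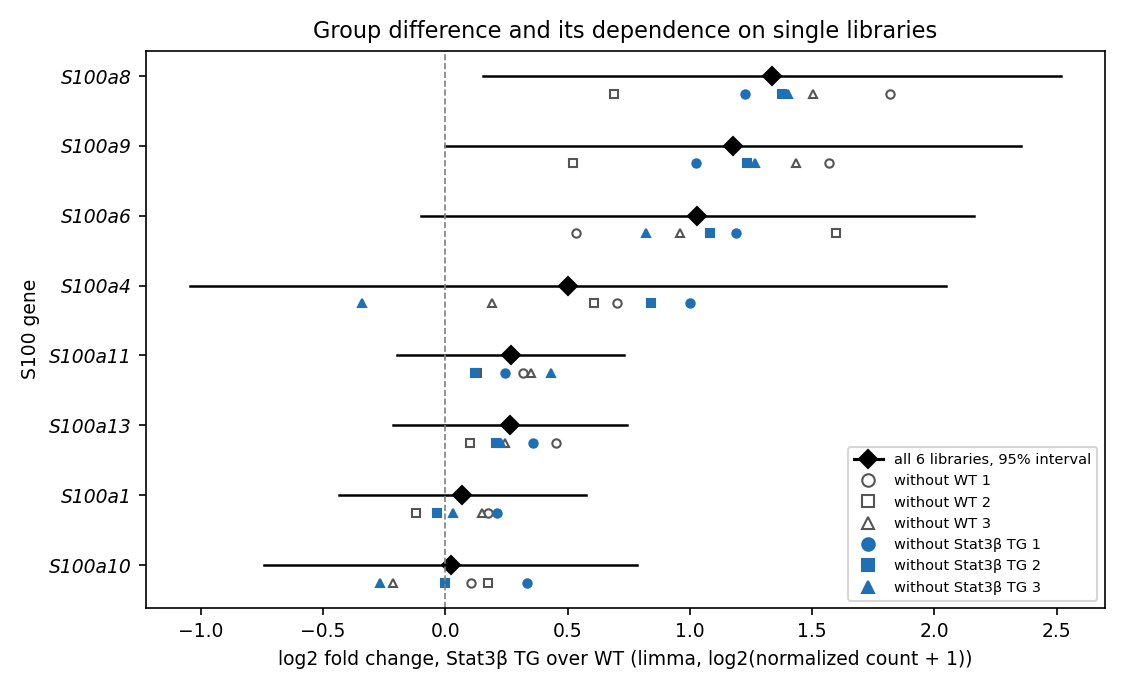
Log2 fold change (Stat3β TG relative to WT) for each S100 gene (diamond, limma with all 6 libraries; line, 95% interval), with the estimates after leaving out 1 library below it. Leaving out WT 2 brings S100a8 from 1.34 to 0.69 and raises S100a6 from 1.03 to 1.60, and leaving out Stat3β TG 3 turns S100a4 from 0.50 to -0.34.

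Transcripts of the pair made up a measurable share of each library. S100a8 and S100a9 together took 0.549%, 0.122% and 0.392% of recovered reads in WT 1 to 3, and 0.805%, 0.637% and 0.638% in Stat3β TG 1 to 3. The 95% Wilson intervals reach at most 0.00314 percentage points to either side, so counting error is small beside the spread between libraries. The pair supplied between 74.9% (WT 2) and 95.3% (Stat3β TG 1) of the reads of the 8 genes. Per kilobase of exon, S100a9 ranked first of 23618 genes with an exon length in 5 libraries and 10th in WT 2. S100a8 ranked 2nd to 4th in those 5 and 24th in WT 2. Even the library poorest in calprotectin transcripts thus held them near the top of the transcriptome.

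The 2 transcripts kept a narrow ratio to each other. S100a9 exceeded S100a8 in 6 of 6 libraries, by 1.47, 1.64 and 1.88 times in WT 1 to 3 and by 1.57, 1.45 and 1.43 times in Stat3β TG 1 to 3. Per kilobase of exon (486 bases for S100a8, 522 for S100a9) the ratio ran from 1.33 to 1.75. Means were 1.66 ± 0.205 in WT and 1.48 ± 0.0751 in Stat3β TG (n = 3 each, SD), and the groups overlapped. Each gene, by contrast, varied 7.20-fold and 6.87-fold between its lowest and highest library.

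S100a6, or calcyclin, a gene of proliferating and many resting cells, had the next largest difference, with another order of libraries. It had 678, 2958 and 1221 normalized counts in WT 1 to 3, and 2212, 2561 and 3697 in Stat3β TG 1 to 3. WT 2, the lowest library for S100a8, was the second highest for S100a6, and WT 1 was the lowest, so the groups overlapped. Means were 1619 ± 1191 and 2823 ± 776 (SD, n = 3 each; log2 fold change 1.03, standard error 0.49, limma adjusted p = 0.668). Against WT 1 alone the log2 fold change was 2.02, without WT 1 it was 0.54, and with the sex-linked term it was -0.10.

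S100a4, known for its part in cell motility through myosin, was high in 1 library. It had 986, 866 and 484 normalized counts in the WT libraries and 525, 657 and 3388 in Stat3β TG. Stat3β TG 3 stood 3.44-fold over the next library, and Stat3β TG 1 and 2 lay inside the WT range. The log2 fold change was 0.50, standard error 0.67 (limma adjusted p = 0.803), and -0.34 without Stat3β TG 3.

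S100a10, the member that has lost calcium binding and holds annexin A2 in a tetramer, had 2068, 2271 and 1324 normalized counts in the WT libraries and 1209, 1928 and 2788 in Stat3β TG. Stat3β TG 3 was above every WT library and Stat3β TG 1 below every one, so the groups overlapped. The log2 fold change was 0.02, with a 95% interval from -0.74 to 0.78 (limma adjusted p = 0.984).

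S100a11, S100a13 and S100a1 varied least. S100a11, which binds annexin A1, had 4991, 3847 and 5229 normalized counts in the WT libraries and 5754, 6826 and 4451 in Stat3β TG. The groups overlapped (log2 fold change 0.27, 95% interval -0.20 to 0.73, limma adjusted p = 0.681). RefSeq lists a pseudogene, S100a11-ps, so reads of S100a11 may be shared or lost.

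S100a13 had 1851, 1141 and 1387 normalized counts in the WT libraries and 1509, 1864 and 1810 in Stat3β TG, with WT 2 the lowest (log2 fold change 0.27, 95% interval -0.21 to 0.74, limma adjusted p = 0.688). S100a1, best known from heart and muscle, had 1396, 930 and 1351 in WT 1 to 3 and 1041, 1457 and 1337 in Stat3β TG 1 to 3 (log2 fold change 0.07, 95% interval -0.44 to 0.57, limma adjusted p = 0.917). WT 2 was the lowest library for both. The annotated spans of these 2 genes overlap by 98 bases on opposite strands. Whether counting used strand is not stated, so reads in the overlap cannot be told apart.

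Per kilobase of exon, the level order in WT was S100a9 (125374), S100a8 (82484), S100a11 (9176), S100a10 (2354), S100a13 (2042), S100a6 (2001), S100a1 (1766) and S100a4 (1564), in normalized counts per kilobase. Within every library S100a8 and S100a9 lay above S100a11, and S100a11 lay above the remaining 5. Those 5 did not keep an order: S100a6 was the lowest of them in WT 1 and the highest in WT 2, and S100a4 was the lowest in Stat3β TG 1 and the highest in Stat3β TG 3. Neighbours among them were not separated beyond the spread between libraries.

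All 8 genes had a log2 fold change above 0, as did 51.4% of the genes tested, with a median of 0.38 against 0.01 over all genes. Without WT 2 and WT 3, 5 of the 8 were above 0, with a median of 0.13. The pair stood apart from the other 6 members by library: its mean log2 level lay 5.60, 3.36 and 5.35 above theirs in WT 1 to 3, and 6.32, 5.59 and 5.09 above in Stat3β TG 1 to 3. WT 2 was the low library and the other 5 overlapped between groups. The group means of this gap were 4.77 ± 1.23 and 5.67 ± 0.620 (SD, n = 3 each), a difference of 0.90. Without WT 2 the difference was 0.19. The other 6 genes together took between 0.0358% and 0.0410% of reads in WT, and 0.0393%, 0.0502% and 0.0599% in Stat3β TG 1 to 3.

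**Figure D3:**
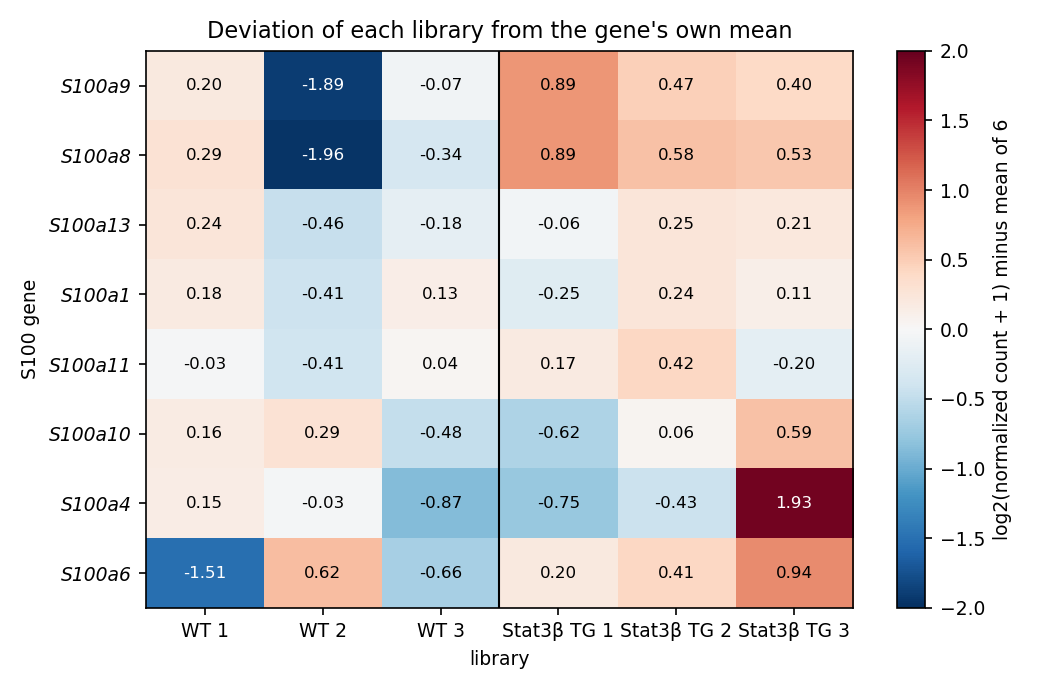
Deviation of each library (columns) from the gene's mean over 6 libraries (rows: S100 genes), in log2(normalized count + 1); blue is below and red above the mean. S100a9 and S100a8 share a low value in WT 2 (-1.89 and -1.96), whereas the outlying libraries of S100a6 and S100a4 are WT 1 (-1.51) and Stat3β TG 3 (1.93).

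Likeness was measured by Pearson's r of log2 level over the 6 libraries, among 10972 genes with a mean of at least 50. With so few libraries, and with WT 2 far from the rest, high values are common, and no p is given. For S100a8 the 10 most alike were Panct2 (r = 0.997), Lrwd1, Agpat2, Gsdmd, Arhgap4, Arhgef18, Atp6v1g2, Rufy1, Cat and Atpsckmt (r = 0.993). Gsdmd encodes gasdermin D, the pore protein of pyroptosis, and Cat encodes catalase. For S100a9 they included Agpat2 (r = 0.997), Gtf2i, Gys1, Pknox1, Olfml2b, Lrwd1, Fbxo9, S100a8 (r = 0.991) and Tlcd1. Agpat2 and Lrwd1 were in both sets. Among the S100 genes, S100a4 and S100a10 had r = 0.846 with each other, while S100a6 had r between -0.37 and 0.39 with the other 7. With S100a8, r was 0.83 for S100a13, 0.71 for S100a11, 0.58 for S100a1, 0.10 for S100a4, -0.11 for S100a6 and -0.23 for S100a10. With S100a9 the values, in the same order, were 0.77, 0.73, 0.57, 0.01, -0.15 and -0.34.

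All 8 members lie on chromosome 3, in a run of S100 genes conserved in mammals. S100a8 and S100a9 point toward each other with 22595 bases between their ends. S100a11 and S100a10 lie about 2851 and 2886 kb from the S100a8 start (S100a11, 93520496 to 93526288; S100a10, 93555117 to 93564645, both plus strand). S100 genes with almost no reads lie among the members of the main cluster, though S100a1 and S100a13, and S100a8 and S100a9, are direct neighbours among the S100 genes. S100a3, S100a5, S100a7a, S100a14, S100a16 and S100a2, and S100b, S100g, S100z and S100a7l2, had no more than 12 reads in any library, and none of these 10 passed the filter. S100a14 had the most, 31 reads over all 6 libraries, while S100z and S100a7l2 had 0, which allows up to 3 reads per library, or 1.69 to 4.22 normalized counts. S100a5, with 2 reads in all, lies between S100a4 and S100a6, which had 9240 and 15641. Counting error limits these low values, and other limits were not tested. Of 6 S100 fused-type genes in the table, large epidermal proteins with an S100 domain, 5 were at 0 in all libraries, and Tchh (trichohyalin), the other one, was at 159 ± 60.3 in WT and 102 ± 64.5 in Stat3β TG (n = 3 each, SD).

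**Figure D4:**
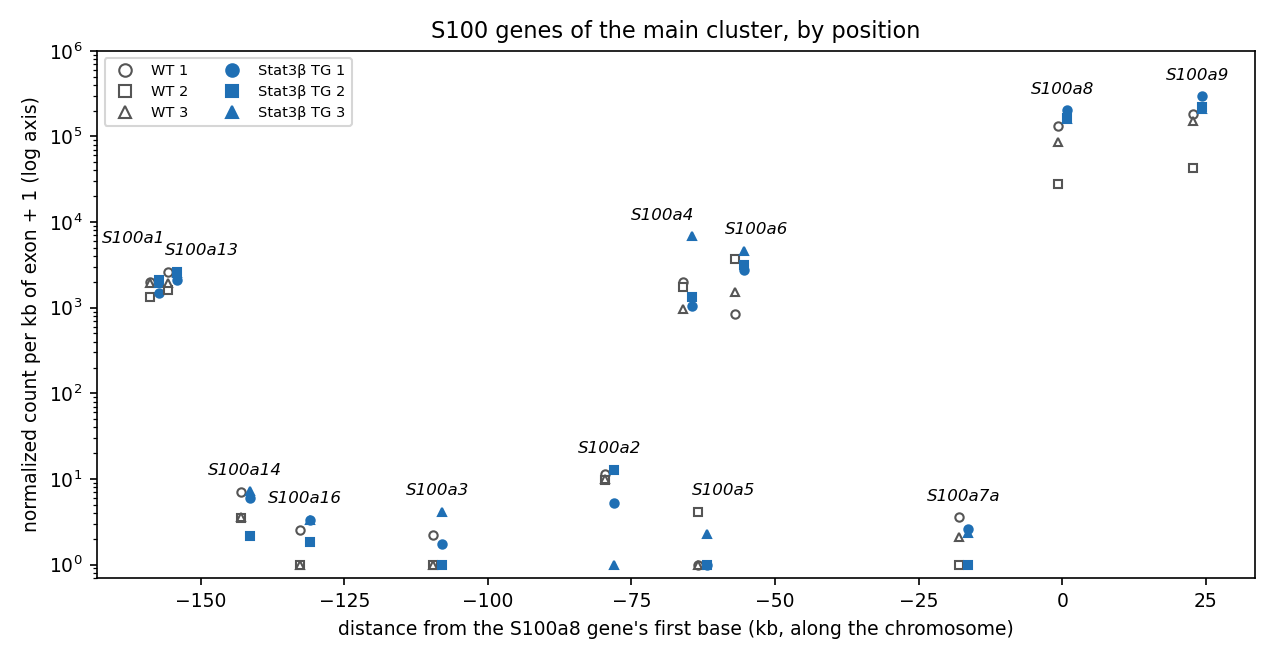
Level of each S100 gene in the main cluster, in normalized counts per kilobase of exon plus 1 (log axis), against the distance of its first base from that of S100a8; S100a10 and S100a11, which lie farther away, are not drawn. The 6 members (S100a1, S100a13, S100a4, S100a6, S100a8 and S100a9) stand far above the 6 genes between them, which had at most 12 reads in any library.

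No gene for an annexin or another S100-binding protein passed the test. Of 12 listed genes 10 were tested, 8 with a log2 fold change above 0 and 2 below, with a median of 0.17 against 0.01 over all genes. By limma 1 of the 10 had an unadjusted p under 0.05, where all genes gave 6.10%, and 2 (Anxa2 and Sugt1) were higher in Stat3β TG without overlap, where all genes gave 5.87%. The one under 0.05 was Anxa2, which encodes the partner of S100A10, at 9677, 13772 and 10945 normalized counts in the WT libraries and 16217, 18303 and 17554 in Stat3β TG. The groups did not overlap (log2 fold change 0.61, standard error 0.17, limma adjusted p = 0.668). S100a10 itself did not share this order, with a log2 fold change of 0.02.

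Ahnak, a giant scaffold protein bound by the S100A10 and annexin A2 complex, was at 3157, 3522 and 1476 normalized counts in the WT libraries and 3320, 3483 and 9295 in Stat3β TG. Like S100a4 it was highest in Stat3β TG 3 and lowest in WT 3, and S100a10 was also highest in Stat3β TG 3. Sugt1, a co-chaperone that binds S100A6, was at 1688 ± 257 in WT and 2065 ± 114 in Stat3β TG, and Anxa5 at 6559 ± 859 and 7858 ± 943 (SD, n = 3 each). Their log2 fold changes were 0.30 and 0.26 (limma adjusted p = 0.668 and 0.670).

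Receptors reported for extracellular S100A8 and S100A9 had fold changes of both signs. Of 12 listed genes 11 were tested, with 7 log2 fold changes above 0 and 4 below (median 0.05), and none passed (limma; 1 at an unadjusted p under 0.05, where all genes gave 6.10%). Ager, which encodes RAGE, had 493, 2414 and 1320 normalized counts in the WT libraries and 487, 529 and 499 in Stat3β TG. WT 1 lay among the Stat3β TG libraries and WT 2 and WT 3 above them (log2 fold change -1.20, standard error 0.51, limma adjusted p = 0.668). Against WT 1 alone its log2 fold change was 0.03, and without WT 1 it was -1.82 (adjusted p = 0.0389).

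Mcam, an adhesion molecule that can bind S100A8/A9, was low throughout, at 19.6, 148 and 45.0 in WT 1 to 3 and 14.1, 14.8 and 21.9 in Stat3β TG, again with WT 1 among the Stat3β TG libraries. Cd14, the co-receptor of TLR4, was at 3959 ± 2215 and 6634 ± 3751, and Nptn (neuroplastin) at 4821 ± 477 and 5748 ± 1180 (WT and Stat3β TG; SD, n = 3 each). Tlr4 was at 662 and 711 on average.

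Transcription factors that regulate S100a8 and S100a9 or myeloid maturation did not differ past the test. Of 14 tested genes 9 had a log2 fold change above 0 and 5 below (median 0.14), with 0 past the adjusted threshold and 0 at an unadjusted p under 0.05 by limma. Stat3 was among them, with a log2 fold change of -0.23 (limma adjusted p = 0.771) that became 0.03 without WT 2. Cebpe, the C/EBP factor of late granulocyte maturation, was at 9876, 3055 and 4718 normalized counts in the WT libraries and 10437, 7991 and 5733 in Stat3β TG, with WT 2 lowest as for S100a8. The groups overlapped (log2 fold change 0.58, standard error 0.42, limma adjusted p = 0.675). Hif1a, Myb and Irf8 were at 3055 ± 887, 28677 ± 9187 and 6084 ± 2866 in the WT libraries and at 2217 ± 460, 35839 ± 4064 and 9461 ± 4867 in Stat3β TG (n = 3 each, SD).

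Other genes of neutrophil maturation had fold changes mostly of the same sign as the pair. Of 19 tested genes, S100a8 and S100a9 left out, 18 had a log2 fold change above 0, with a median of 0.87 against 0.01 over all genes. None passed the adjusted threshold (limma), 10 had an unadjusted p under 0.05 and were higher, where all genes gave 3.56%, and in 6 every Stat3β TG library was above every WT library, where all genes gave 5.87%. That these genes were higher was known when the list was made. Cd177, a neutrophil surface protein, was at 3850 ± 990 normalized counts in the WT libraries and 11017 ± 4510 in Stat3β TG, Mcemp1 at 2575 ± 476 and 4618 ± 547, Wfdc21, a WAP-domain protein, at 324 ± 137 and 823 ± 46.2, and Mmp8, the neutrophil collagenase, at 1764 ± 608 and 3606 ± 749 (SD, n = 3 each). Their log2 fold changes were 1.48, 0.85, 1.45 and 1.06 (limma adjusted p = 0.668 for each), and DESeq2 called Cd177 (adjusted p = 0.00383).

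The list's mean log2 level ran from 11.30 (WT 2) to 12.25 (WT 1) in WT and was 13.25, 12.68 and 12.41 in Stat3β TG 1 to 3, with WT 2 the lowest and Stat3β TG 1 the highest, as for S100a8 and S100a9. Summed over the 19 genes, none of which was at 0 in all libraries, the level ran from 178730 to 449290 normalized counts in the WT libraries and from 432860 to 812710 in Stat3β TG. Without WT 2 and WT 3, 14 of 19 were above 0, with a median of 0.55. Without WT 1, Ltf, Ly6g and Mcemp1 passed the adjusted threshold, in a fit that called 2.37% of all genes. The part of maturing neutrophils in the S100a8 and S100a9 values was not tested.

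No monocyte or macrophage gene passed the test. Of 14 tested genes 11 had a log2 fold change above 0, where all genes gave 51.4%, with a median of 0.66 against 0.01 over all genes. By limma 2 were higher and 1 lower at an unadjusted p under 0.05, where all genes gave 6.10% in either direction and 3.56% higher. In 0 was Stat3β TG the higher without overlap, where all genes gave 5.87%. The list's mean log2 level was 11.59, 10.30 and 10.75 in WT 1 to 3 and 11.31, 11.23 and 12.09 in Stat3β TG 1 to 3. WT 1 lay within the Stat3β TG range, and Stat3β TG 3, the library highest in S100a4, S100a6 and S100a10, was the highest. Against WT 1 alone 6 of 14 were above 0, with a median of -0.08. Summed levels ran from 88579 to 105990 normalized counts in the WT libraries and from 97766 to 202840 in Stat3β TG, with no gene at 0 in all libraries. The part of monocytic cells in the S100 values was not tested.

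Lyz2 (lysozyme, near-identical to Lyz1 and so uncertain) was at 21411, 9054 and 9505 normalized counts in the WT libraries and 38725, 18519 and 63549 in Stat3β TG. The fractalkine receptor gene Cx3cr1 was at 1586, 51.4 and 331 in WT 1 to 3 and 963, 738 and 4013 in Stat3β TG. Both were highest in Stat3β TG 3. Ms4a6d was at 55.0 ± 48.8 and 142 ± 42.4 (WT and Stat3β TG; SD, n = 3 each), with a log2 fold change of 1.67 (limma adjusted p = 0.668).

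Primary granule genes mark the earlier promyelocyte stage. Of 10 tested genes 7 had a log2 fold change above 0 and 3 below (median 0.12; limma, 0 past the adjusted threshold and 0 at an unadjusted p under 0.05). Their summed level ran from 173350 to 236780 normalized counts in the WT libraries and from 159840 to 251430 in Stat3β TG, so the Stat3β TG range enclosed the WT range.

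Markers of other cell types were also compared. Among all tested genes 51.4% had a log2 fold change above 0, with a median of 0.01. The groups did not overlap in 10.8% of all genes, with Stat3β TG the higher in 5.87%, and DESeq2 called 0.134%. Of 8 eosinophil, basophil and mast cell genes 5 were tested, 2 with a log2 fold change above 0 and 3 below. Their summed level ran from 10264 to 40277 in WT and from 5197 to 9237 in Stat3β TG, without overlap, and none was at 0 in all libraries. Over 5 of the 6 libraries most of it was Prg2, a granule protein of eosinophils, at 24537 ± 14635 in WT and 5058 ± 1730 in Stat3β TG (n = 3 each, SD; log2 fold change -2.08, limma adjusted p = 0.668, called by DESeq2). The 5 tested T and NK genes all had a log2 fold change above 0, and their list summed to 38.0 to 262 in WT and 145 to 248 in Stat3β TG. Without WT 2 and WT 3, 0 of these 5 were above 0, with a median of -0.37. Of 7 megakaryocyte genes 3 were tested, all above 0 (median 1.03, and 0.40 without WT 2 and WT 3), and Gp1bb was higher in Stat3β TG without overlap. That list summed to 717 to 2489 in WT and 1048 to 2132 in Stat3β TG, with Gp6 at 0 in all libraries. Of 8 stroma and endothelium genes 3 were tested, all above 0 (median 0.88, and 0.0026 without WT 2 and WT 3), with sums of 117 to 218 and 165 to 375. Both tested erythroid genes were below 0 and both tested B lineage genes above 0. Among the 10 blast markers 4 were above 0 and 6 below (median -0.08), and Pbx3, a partner of HOX proteins, was lower in Stat3β TG without overlap, at 5708 ± 2002 and 2829 ± 1052 (WT and Stat3β TG; SD, n = 3 each; limma adjusted p = 0.668). The part of these cells in the S100 values was not tested.

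**Figure D5:**
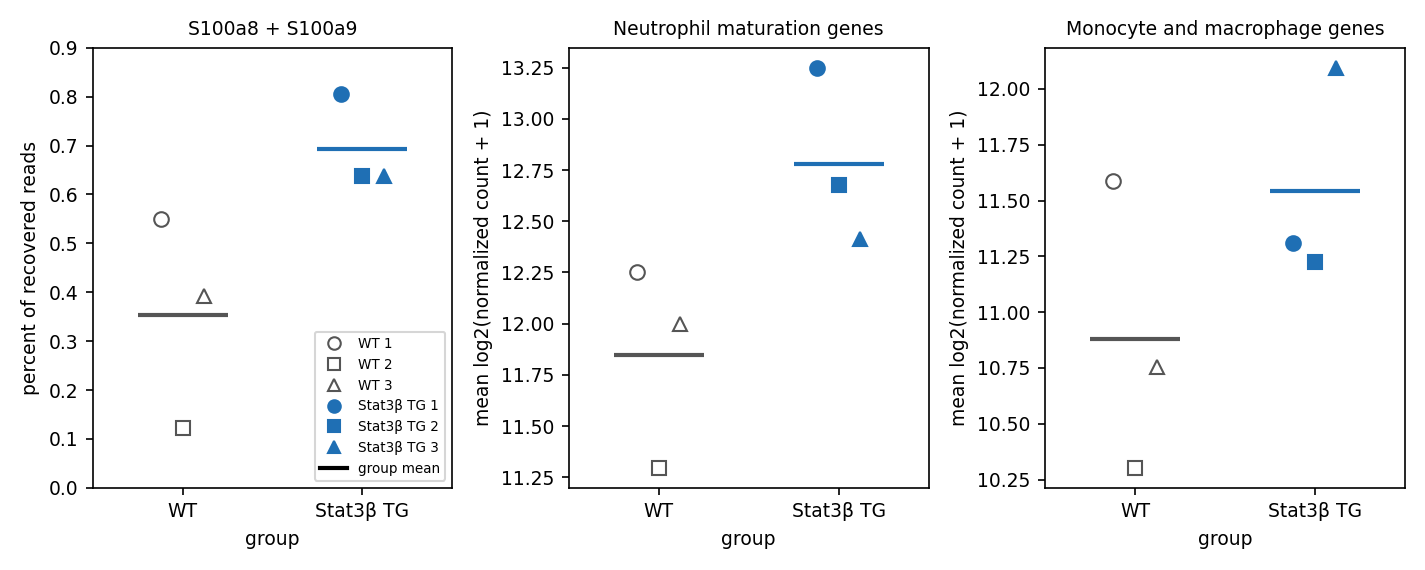
Left, S100a8 and S100a9 together as a percent of recovered reads; middle and right, mean log2(normalized count + 1) of 19 neutrophil maturation and 14 monocyte and macrophage genes; 1 point per library, bars at group means, and axes that do not start at 0 in the middle and right panels. WT 2 is the lowest point in all 3 panels, and WT 1 lies below the Stat3β TG points on the left and in the middle but among them on the right.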

How the data were processed

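The members and gene lists were chosen with earlier results of these data known. The tools named per the submitters' processing notes are STAR, FastQC and DESeq2, with GRCm38 (mm10). Sources used here do not state versions, gene counter, strand or annotation. The authors deposited gene-level normalized counts, a signal per Entrez ID. Dividing by the smallest step of each library gave whole reads, within 0.001, for 100% of 146724 values. Symbols and coordinates of 24376 of 24454 IDs came from RefSeq (GRCm38.p6), and exon lengths and strand from GENCODE M21 by symbol. No 2 libraries agreed within sampling noise (chi-square per gene 62.3 to 212).

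Groups and replicates came from titles. Values were analysed as log2(normalized count + 1) with limma 3.58.1 (trend, robust; group as the only term; two-sided; Benjamini-Hochberg adjustment, threshold 0.05) in R 4.3.3, over 12642 genes with at least 10 in at least 3 libraries. This pulls fold changes of low genes toward 0. Run on those whole reads, the quasi-likelihood test of edgeR 4.0.16 called 0 genes and DESeq2 1.42.0 called 17. Other alternatives were the pseudocount, filter, quantile normalization, a replicate block, a sex-linked term and left-out libraries. A count of 0 allows 3 reads. Wilson intervals of read shares cover counting error only. Fold change intervals come from the limma fit and reflect the spread between libraries. The scripts were tested on simulated data. Named genes were the 8 members, of the other lists up to 4 genes with the smallest p, and the 10 genes most like S100a8 and S100a9. Stat3 and Tlr4, and the genes a left-out library called, were added after their values were seen; some genes under the rule are not reported here.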

Additional observations from a re-analysis of the deposited data

How the results depend on the processing

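None of the 8 S100 genes passed the adjusted threshold in any of 16 alternative fits (128 values), and S100a8, S100a9 and S100a11 kept their direction in all of them. Signs turned, always without a call, as follows. Without WT 2 and WT 3, where 1 WT library is assumed to vary like the others, log2 fold changes were -0.14 for S100a1, -0.15 for S100a10, -0.11 for S100a13, 0.034 for Ager, -0.34 for Cebpe, -0.16 for Cx3cr1, -0.077 for Irf8 and 0.25 for Stat3. With the sex-linked term they were -0.28 for S100a10, -0.10 for S100a6 and -0.059 for Cd14. Leaving out each library in turn gave -0.12 to 0.21 for S100a1, -0.34 to 1.0 for S100a4, -0.27 to 0.33 for S100a10 and -0.47 to 0.034 for Stat3. The cause was not tested.

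The count of genes past the threshold was 0 by limma with all libraries (771 at an unadjusted p under 0.05) and 0 by edgeR (780), 17 by DESeq2 (970), 2 with the sex-linked term and 8 without WT 2 and WT 3. Leaving out each library in turn gave 0 to 296, with 296 without WT 1 and 5 without WT 2. The gap between the pair and the other members differed by 0.19 to 1.31 between groups over the same 6 fits, and by 0.86 with the median in place of the mean. List counts were 0 with all libraries. Leaving out each library in turn gave 0 to 3 neutrophil maturation genes, 0 to 2 monocyte genes and 0 to 1 receptor gene, the highest each time without WT 1. DESeq2 called 1 neutrophil gene (Cd177), and the sex-linked term 1 primary granule gene (Ms4a3). The counts for S100-binding proteins and transcription factors stayed at 0 in every alternative. Cell-type marker lists other than the neutrophil, primary granule and monocyte ones were not recounted under each alternative.

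With the replicate number as a block, 0 genes passed (934 at an unadjusted p under 0.05), and no call changed. Whether the numbers pair the samples is not settled. Deviations of same-numbered libraries correlated at 0.141, 0.099 and -0.107, and those of differently numbered libraries at -0.202 to 0.143. WT 1 and WT 2 correlated best with the library of the same number, and WT 3 with Stat3β TG 2. Depth does not limit the members, which had at least 344 reads in every library, but it does limit the 10 other S100 genes.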
